A study of Mus musculus with 9 samples.

Results

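The Fezf2+/+ (wild type) cortex of newborn mice was described from its own expression values. The members are the 3 libraries that the labels give as wild type, named bc201, bc202 and bc203, out of 9 libraries in the series. They were taken by genotype alone, and no measured value was used to choose them.

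In the series, RNA from the dissected cerebral cortex of P0 mice, the day of birth (postnatal day 0), was sequenced in 3 genotypes. Each library came from both cortical hemispheres of 1 mouse, and all pups came from crosses of Fezf2+/- mice with Fezf2+/-; Fezf2-EnR mice. The Fezf2+/+ pups carried neither the null allele nor the transgene, and 2 of them (bc201 and bc202) were of litter m1 and 1 (bc203) of litter m2. The other 6 libraries were 4 of Fezf2-/- pups (2 of litter m1 and 2 of litter m3) and 2 of Fezf2-/-; Fezf2-EnR pups (1 of litter m2 and 1 of litter m3). In the Fezf2- allele a human placental alkaline phosphatase (PLAP) gene stands under the control of the Fezf2 promoter. Fezf2-EnR is a BAC transgene for the DNA-binding domain of FEZF2 joined to the engrailed repressor domain. The sexes of the pups were not determined by the study.

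At birth most neurons of the mouse neocortex have been made, and they are still migrating, growing axons and forming their first synapses. Excitatory neurons are arranged in layers by birth date and target. Subplate and layer 6 corticothalamic neurons are born first, then the subcerebral neurons of layer 5, then layer 4 and the callosal neurons of the upper layers. Inhibitory interneurons arrive from the ganglionic eminences, and glial cells are mostly made after birth. Fezf2 encodes a zinc finger transcription factor of deep layer neurons that is needed for the subcerebral identity.

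The table gives reads per gene after division by the size factor of each library, called the normalized value below. To set genes beside each other, values were divided by the length of the gene's merged exons and scaled to a sum of 1000000 in each library, here called the level per kilobase, in ppm (parts of that sum). Values are given as mean ± SD over the 3 Fezf2+/+ libraries unless said otherwise. In bulk tissue, fewer cells of a type and less RNA per cell cannot be told apart.

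The 3 libraries held 24263757, 19531791 and 19437292 reads counted to genes, recovered from the deposited values. Of the 24624 rows of the table, 24078 were above 0 in at least 1 Fezf2+/+ library and 20825 in all 3. A mean of at least 10 was reached by 16178 rows, here called expressed, a mean of at least 1000 by 4775 and a mean of at least 10000 by 235. Protein-coding genes made up 13691 of the expressed rows and 97.1% of the summed value. The median expressed row had a level of 18.1 ppm, and 99% of expressed rows lay below 617 ppm.

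By normalized value, which is not divided by length, 11 of the 20 highest rows were genes of the cytoskeleton and of growth cones. The highest row was Tuba1a (ENSMUSG00000072235.6, mm10 chr15:98949837-98953703, minus strand), the main α-tubulin of developing neurons, with normalized values of 84451, 100226 and 86092 in bc201, bc202 and bc203. It alone held 0.44% ± 0.0416 of the summed value. Next came Dpysl3 at 67227 ± 2238, which encodes a collapsin response mediator of growth cones, and Map1b at 67216 ± 6127, a microtubule-associated protein of growing axons. Of the 20 highest rows, the tubulins Tubb2b, Tubb5 and Tubb3, the microtubule proteins Mapt (tau), Map2 and Dcx (doublecortin, of migrating neurons), Crmp1 and the β-actin gene Actb belonged to the same kind of gene. The list of 17 microtubule and growth cone genes held 3.5% ± 0.118 of the summed value, and all 17 lay above the 98th percentile of expressed rows.

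The rest of the 20 highest rows were 5 mitochondrial mRNAs (mt-Co1, mt-Nd4, mt-Cytb, mt-Nd1 and mt-Nd5), the translation factors Eef1a1, Eef2 and Eif4g2, and Gm10925, a pseudogene. Eef1a1, which brings aminoacyl-tRNA to the ribosome, had values of 59431, 66334 and 62646. The first of these mitochondrial mRNAs, mt-Co1, had 60330.4, 69121 and 60986 and was highest in bc202. Of the 20 highest rows of each library, 18 were shared by all 3, and 92 of the 100 highest. The 100 highest rows held 14% ± 0.336 of the summed value, and 1190 rows held 50% of it. Ribosomal protein genes, 95 rows, held 1.91% ± 0.0991, and α- and β-tubulin genes, 13 rows, held 1.51% ± 0.102.

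**Figure D1:**
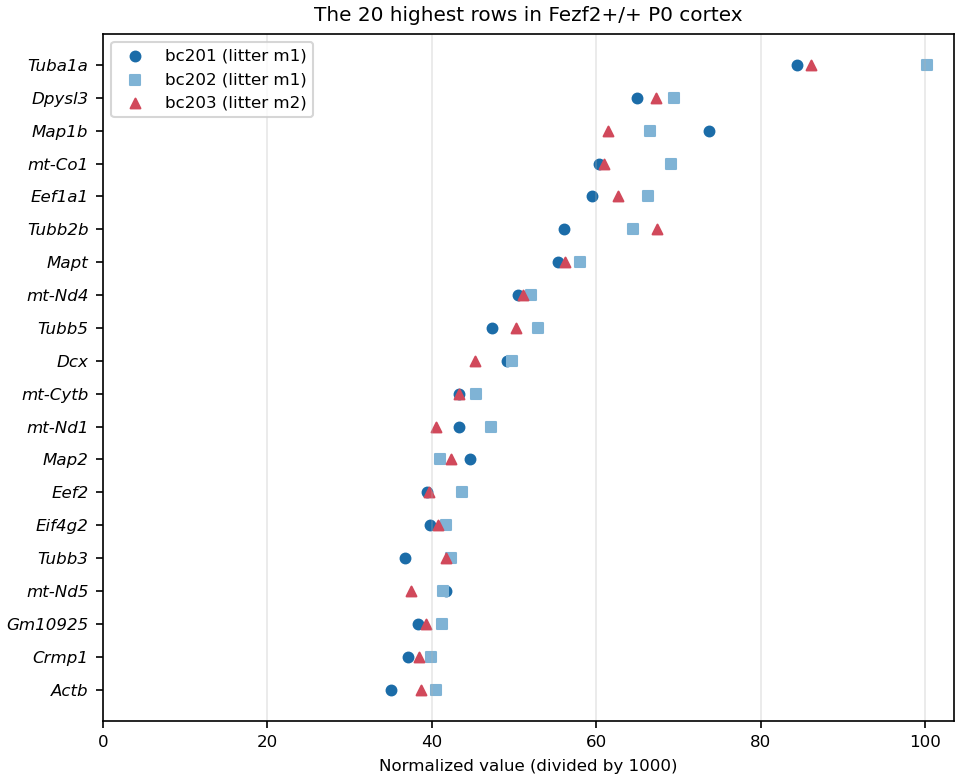
Normalized values (horizontal axis, divided by 1000) of the 20 rows with the highest mean in Fezf2+/+ cortex, 1 point for each of the 3 libraries. Tuba1a lies furthest to the right in all 3 libraries, from 84451 in bc201 to 100226 in bc202.

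Part of the mitochondrial signal was listed under nuclear pseudogenes. A run of 7 pseudogenes on the minus strand of mm10 chr1:24611535-24616197 copies a stretch of the mitochondrial genome, and these rows held 0.627% ± 0.0346 of the summed value, beside 1.66% ± 0.0991 for the mitochondrial genes themselves. Gm10925 is identical to mt-Atp6 (a subunit of ATP synthase) over all 678 aligned bases, and 98.4% of the summed value of the pair stood in the pseudogene row, 39626 ± 1509.7 against 643 ± 30.7. The same held for Gm28437 and mt-Co3 (98.2% in the pseudogene) and for Gm28661 and mt-Co2 (97.9%). The first 30 bases of the coding strand show the identity, and beside it the pair Gm28438 and mt-Nd3, which differ at 1 base of 345 (T3C, counted from 1 at the 5′ end, mitochondrial base first; the differing base is in capitals).
Gm10925: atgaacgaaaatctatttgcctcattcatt
mt-Atp6: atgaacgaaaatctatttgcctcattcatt
Gm28438: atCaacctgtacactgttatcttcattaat
mt-Nd3: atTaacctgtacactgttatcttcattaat

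For Gm28438 the pseudogene held 15.2% of the pair, 717 ± 120.0 against 3987 ± 483, and for Gm28439, identical to mt-Nd4 over 876 bases, 0.698%. But mt-Nd4 has 1378 bases, and reads from outside the 876 shared ones can fall only in its own row. Gm10222, identical over 294 bases to mt-Nd4l, which has 297, held 2.1% of its pair. The share of the pseudogene in such pairs therefore ran from under 1% to over 98%. The levels of mt-Atp6, mt-Co2 and mt-Co3 read from their own rows are uncertain. The share was nearly the same in each library, from 98.3% to 98.5% for Gm10925.

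Per kilobase the order differed, and Dpysl3, Map1b, Dcx and Map2 ranked 38, 109, 131 and 239. Gm10925 came first at 10716 ± 209 ppm and Tuba1a second at 9173 ± 717 ppm, followed by 2 more of these pseudogenes and by mt-Nd1 at 8367 ± 543 ppm. Tubb2b (5007 ± 418 ppm), Eef1a1 (4618 ± 168 ppm), Tubb3, the neuron-specific β-tubulin (3947 ± 242 ppm), and Tubb2a (3146 ± 295 ppm) were also among the 20 highest. The 20 also held 3 small or overlapping rows, Gm49450, Gm26377 and Gm23419, which lie within or across Tuba1a, Eef1a1 and Actg1 on the same strand. Their reads cannot be told from those of the larger genes. Tuba1a and Tuba1b share a run of 281 identical bases and Tubb2a and Tubb2b one of 551, so that the levels of single tubulin genes depend on how shared reads were counted.

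Pan-glutamatergic genes, which excitatory neurons share across layers, were among the higher lists. Neurod6, a transcription factor of postmitotic pyramidal neurons, had normalized values of 12591, 11824 and 11922 and a level of 1034 ± 53.5 ppm, above 99.5% of expressed rows. Neurod2, of the same family, stood at 471 ± 24.6 ppm and Mef2c, an activity-dependent transcription factor, at 395 ± 10.6 ppm. All 3 differed little between libraries. Slc17a7, the vesicular glutamate transporter VGLUT1, was at 76.6 ± 4.2 ppm and Slc17a6 (VGLUT2) at 24.2 ± 2.23 ppm. The list median over 7 members was 76.6 ± 4.2 ppm. Every neighbouring pair of the 7, ordered by level, was separate in all 3 libraries except Emx1 and Neurod1.

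Subplate and layer 6b genes were lower. Of 8 members the median was 9.81 ± 0.468 ppm. Nr4a2, an orphan nuclear receptor of subplate and claustral neurons, was highest with values of 2179, 2393 and 2156 (101 ± 4.34 ppm), followed by Nxph4, a neurexophilin, with 385, 483 and 410.0 (46.6 ± 4.68 ppm) and Ctgf, the connective tissue growth factor that marks the subplate, with 404, 398 and 335 (24.3 ± 2.49 ppm). The 3 did not overlap per kilobase. Cplx3, a complexin, had 103, 78.9 and 114 (6.14 ± 1.18 ppm), and its range overlapped that of Lpar1. Moxd1 and Inpp4b were the lowest members, both below 2 ppm.

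Layer 6 corticothalamic genes had a median of 94.7, 95.2 and 95.8 ppm in bc201, bc202 and bc203, within 2% of each other. By normalized value, however, 7 of the 11 members were lowest and 2 highest in bc203. Rprm, a p53-regulated cell cycle gene used as a layer 6 marker, led with values of 3142, 3259 and 3128 (399 ± 4.62 ppm). Tbr1, the T-box factor needed for corticothalamic identity, had 6527, 6254 and 6055 (210.0 ± 10.6 ppm), and Wnt7b, a secreted Wnt ligand, had 4078, 5035 and 4044 (164 ± 18.2 ppm), higher in bc202 than in the other two. Tle4 (ENSMUSG00000024642.16, mm10 chr19:14448150-14598051, minus strand), the Groucho-family corepressor of corticothalamic neurons, had 2861, 2642 and 2755, which is 88.6 ± 5.16 ppm and above 85.3% of expressed rows. Its values in the 3 libraries lay within 10% of each other. Foxp2, a forkhead factor, and Zfpm2, a cofactor of GATA factors, were the lowest of the 11, at 8.62 ± 0.651 and 10.4 ± 2.43 ppm, and their ranges overlapped. Zfpm2 ran from 444 in bc203 to 672 in bc201.

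Layer 5 subcerebral genes spanned from 3.99 to 408 ppm over 18 members, with a median of 29.6 ± 1.21 ppm. Bhlhe22, which encodes the bHLH factor BHLHB5, was highest with 7089.9, 7540.2 and 7679 (408 ± 13.2 ppm), then Ldb2, a LIM domain binding protein, with 3855, 3332 and 3255 (192 ± 20.9 ppm). S100a10, a calcium-binding partner of annexin, had 534, 692 and 879 (106 ± 25.7 ppm), and its highest value was in the litter m2 library. Bcl11b, which encodes CTIP2, a factor of corticospinal neurons, had 4241, 4137 and 4198 (94.8 ± 2.94 ppm). Bcl11b, S100a10 and Pcp4 could not be ordered, because their levels overlapped.

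Fezf2 itself (ENSMUSG00000021743.6, mm10 chr14:12342094-12348189, minus strand) had values of 1232, 1010.0 and 979, a level of 64.7 ± 9.32 ppm, above 80% of expressed rows. It was lower per kilobase than Bcl11b in every library, and its range overlapped that of Ephb1, an ephrin receptor. The remaining members reached down to Npr3, a natriuretic peptide receptor, at 5.77 ± 0.942 ppm and Sema3e, a class 3 semaphorin, at 3.99 ± 0.494 ppm. Neighbours overlapped in 8 of 17 pairs, so the order within layer 5 is known only in part.

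Layer 4 genes were represented mainly by Unc5d, a netrin receptor (1789, 1529 and 1869.6, or 34.4 ± 4.03 ppm), and Rorb, the nuclear receptor that marks layer 4 (1647, 2053 and 2308, or 33.1 ± 5.27 ppm), which could not be ordered. Kcnh5, a potassium channel gene, was at 11.7 ± 0.595 ppm. Rspo1, an R-spondin, was listed at 6.76, 4.21 and 4.22, a few reads in each library. Scnn1a, a sodium channel subunit used as a layer 4 marker of the adult cortex, was at 14.4, 14.7 and 13.7.

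Callosal and upper layer genes had a list median of 94.9 ± 2.7 ppm, beside 95.2 ± 0.51 ppm for layer 6. As a mean over members the upper layer list was higher, at 167 against 118 ppm. That mean includes Ptn, at 791 ppm the highest of the 14 members, and a mean without Ptn was not taken. The higher mean therefore does not show that the upper layer genes as a group were higher. Ptn (pleiotrophin, a secreted growth factor) had 14453, 15460.2 and 14514 (791 ± 17.2 ppm), and the POU factor Pou3f3 (BRN1) had 9613, 9601 and 9934 (241 ± 6.78 ppm). Their levels per kilobase did not overlap. Cux2 and Cux1, the homeodomain factors of upper layers, were at 89.9 ± 1.84 and 54.3 ± 1.67 ppm. Lpl, lipoprotein lipase, had 5079, 4819.6 and 3142 and was lowest in bc203. Mdga1, a cell surface protein of upper layer neurons, had 3163, 3233 and 3190.1, within 3% of each other. Cartpt was the lowest of the 14 at 7.6, 13.7 and 11.6.

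Cajal-Retzius cells are a small, early-born population of the marginal zone. Reln (reelin, the secreted guide of layering) was highest with 6986, 6859.5 and 4108 (46.2 ± 12.6 ppm), and its value in bc203 was the lowest of the 3. Reelin is also made by interneurons. Ndnf, a secreted factor, had 1403, 1354 and 1254 (24.3 ± 1.57 ppm) and Cacna2d2, a calcium channel subunit, 621, 618 and 517 (13.5 ± 1.37 ppm). Trp73, which encodes the p53 relative p73 and is more restricted to these cells, had 202, 196 and 168 (6.25 ± 0.632 ppm), and the LIM homeobox genes Lhx5 and Lhx1 only 2.54 ± 0.204 and 0.677 ± 0.05 ppm. The median of the 8 members was 9.16 ± 0.66 ppm.

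Genes of inhibitory neurons were lower than the pan-glutamatergic ones by their list medians. Among 9 members, Dlx1, a homeobox factor of the ganglionic eminence lineage, had 1536, 1458 and 1321 (48.9 ± 4.09 ppm). The GABA-synthesizing enzymes Gad1 and Gad2 had 1112, 1031 and 1009 and 552, 534 and 658, which is 25.2 ± 1.68 and 18.2 ± 2.17 ppm. The list median of 27.9 ± 1.98 ppm was above the median of all expressed rows.

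Genes of interneurons from the medial ganglionic eminence (MGE) were higher than those from the caudal one (CGE), with medians over 9 and 8 members of 55.5, 49.5 and 59.8 ppm and 14, 10.7 and 11.5 ppm in bc201, bc202 and bc203. The neuropeptide gene Npy led the former with 2193, 2221 and 2132 (707 ± 15.7 ppm), followed by Sst (somatostatin) with 639, 659 and 619 (162 ± 4.18 ppm) and by Lhx6, the LIM homeobox factor that marks the lineage, with 2008, 2259 and 1948 (79 ± 5.12 ppm). Npy and Sst varied by under 5% of their mean. Nkx2-1, the MGE progenitor factor that most cortical interneurons switch off, was at 19.4, 15.8 and 13.7.

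Of the CGE genes, Cck (cholecystokinin) was highest with 463, 567 and 677 (79.9 ± 14.6 ppm). Cck is also made by excitatory neurons. Npas1, a bHLH-PAS factor, had 389, 472 and 442 (26.5 ± 2.09 ppm) and Nr2f2 (COUP-TFII), a nuclear receptor of the lineage, 861, 908 and 837 (18.5 ± 0.574 ppm). The serotonin receptor gene Htr3a had 190.1, 126 and 121, highest in bc201, and Vip, the vasoactive intestinal peptide of a late-maturing subtype, only 22, 18.9 and 25.3 (1.19 ± 0.183 ppm).

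**Figure D2:**
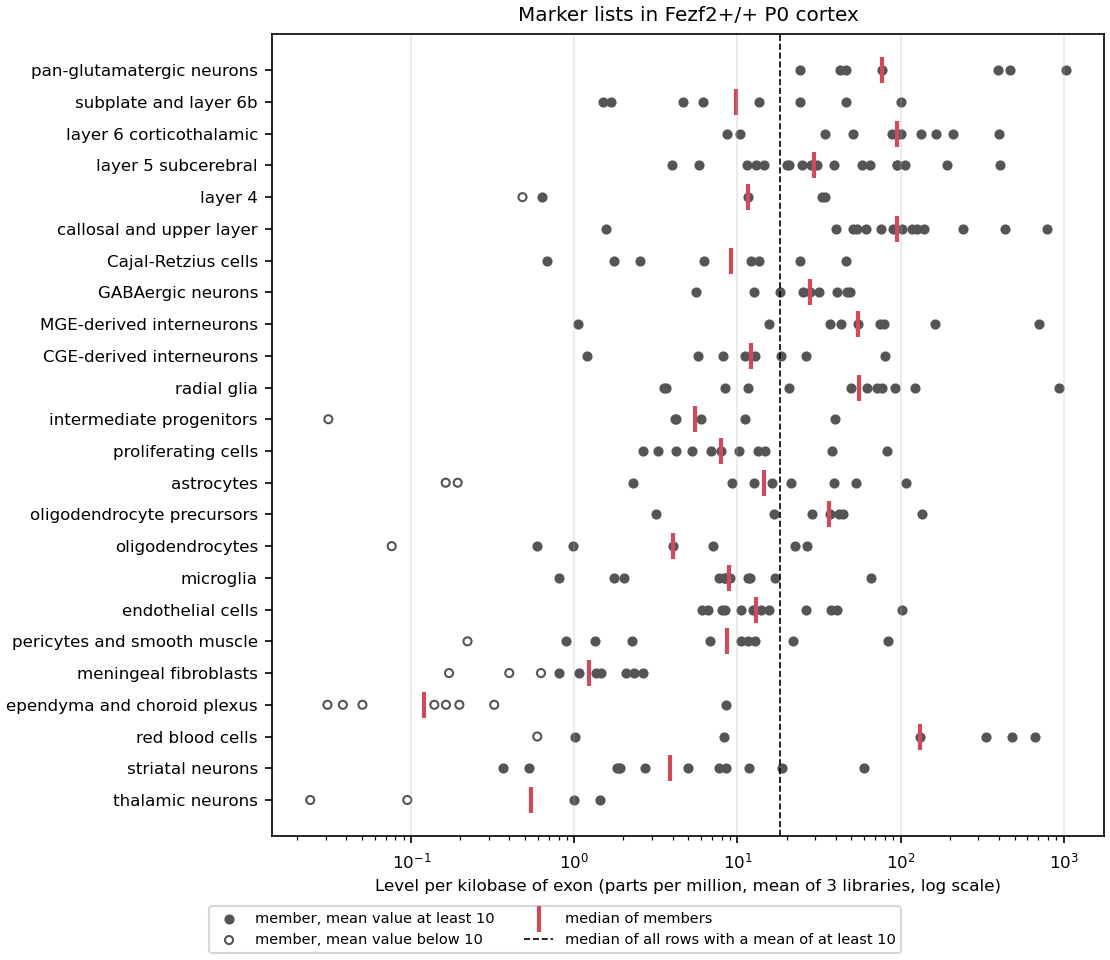
Level per kilobase (ppm, log axis, mean of the 3 Fezf2+/+ libraries) of every member of 24 marker lists, with filled points for members with a mean normalized value of at least 10, open points for members below it and a red bar for the list median. The medians of layer 6 and upper layer genes, 95.2 and 94.9 ppm, lie right of the dashed median of all expressed rows, and those of ependyma, thalamic and meningeal genes far left of it.

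Progenitor genes were present at unequal levels. Radial glial genes had a median of 55.9 ± 6.18 ppm over 12 members, led by Fabp7, the brain fatty acid binding protein (6240.0, 6702 and 6314, or 942 ± 20 ppm), which stood far above the next members, Ptprz1, a receptor phosphatase (10916, 10015 and 7799, or 123 ± 21.4 ppm), and Slc1a3, the glutamate transporter GLAST (4612, 4135 and 4202, or 92.8 ± 7.16 ppm). These genes are also used by astrocytes and their precursors. Sox2, the stem cell factor, was at 77 ± 5.59 ppm, whereas Pax6, the cortical progenitor factor, had only 288, 228 and 181 (3.65 ± 0.884 ppm), lowest in bc203. Fam107a, a gene of outer radial glia, was the lowest of the list at 3.54 ± 0.708 ppm.

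Intermediate progenitor genes were among the lower lists, with a median of 5.47 ± 1.19 ppm. Insm1, a zinc finger factor of basal progenitors and newborn neurons, had 724, 745 and 542 (39.6 ± 6.53 ppm). Gadd45g had 77.7, 86.3 and 49.5 (11.1 ± 2.94 ppm) and Eomes (TBR2), the T-box factor that defines these cells, 182, 135 and 91.7 (6.02 ± 2.06 ppm). All 3 were lowest in bc203. Neurog1, a proneural factor, was listed at 0.84, 0 and 0, that is, 1 read in bc201 and none in the others.

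Genes of dividing cells had a median of 7.88 ± 1.12 ppm over 11 members. Pcna, the sliding clamp of DNA replication, had 1089, 1131 and 1035 (82.9 ± 3.18 ppm), Rrm2, a subunit of ribonucleotide reductase, 556, 579 and 591 (38.1 ± 0.981 ppm) and Mcm5, of the replicative helicase, 321, 343 and 304 (14.8 ± 0.762 ppm). Mki67 (Ki-67) had 692, 549 and 435 (10.2 ± 2.47 ppm) and Top2a (topoisomerase II) 788, 666 and 519.6 (13.4 ± 2.87 ppm), with the highest value of both in bc201 and the lowest in bc203.

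Astrocyte genes were led by Aldoc, a brain aldolase (2094, 1948 and 1725, or 108 ± 11.4 ppm), Slc1a2, the glutamate transporter GLT-1 (3908, 3582 and 3885, or 53 ± 3.45 ppm), and Aldh1l1, a folate enzyme (1018, 1058 and 826, or 39.3 ± 4.91 ppm). Aqp4, the water channel, had 548, 539.7 and 581 (16.4 ± 0.772 ppm) and Gja1 (connexin 43) 544, 501 and 506 (9.25 ± 0.583 ppm). Gfap, the glial intermediate filament, had 280.5, 264 and 332 (12.7 ± 1.62 ppm) and S100b 12.7, 22.1 and 21.1, while Gjb6 (connexin 30) at 4.22, 4.21 and 0 and Agt (angiotensinogen) at 0.84, 2.1 and 2.11 held 5 reads or fewer in a library. The median over 10 members was 14.5 ± 1.19 ppm.

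Oligodendrocyte precursor genes were higher than those of mature oligodendrocytes, with medians of 38.2, 34 and 37.5 ppm against 3.69, 4.16 and 4.19 ppm in bc201, bc202 and bc203. Olig1 and Olig2, the bHLH factors of the lineage, had 1454, 1613 and 1728 (136 ± 10.7 ppm) and 588, 559 and 693 (44.5 ± 5.41 ppm), and Pdgfra, the PDGF receptor that marks the precursors, 2601, 2183 and 2047 (41.7 ± 5.89 ppm). Olig1 was above both in every library, and Olig2 and Pdgfra could not be ordered. Of the myelin genes, Cnp (a phosphodiesterase) and Mbp (myelin basic protein) were highest with 472, 559 and 550.1 and 1031, 1064 and 1037, Ermn, a cytoskeletal protein of oligodendrocytes, had 136, 124 and 159 (7.06 ± 0.953 ppm), and Mog, of the outer myelin surface, had 0, 0 and 2.11.

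Microglial genes were low. C1qa, of the complement C1q complex, had 93.8, 105 and 89.6 (17 ± 1.19 ppm) and P2ry12, the purinergic receptor of resting microglia, 158, 184 and 153 (11.9 ± 1.02 ppm). The median over 12 members was 8.82 ± 0.423 ppm. Aif1 (IBA1) was the least even member, with 79.4, 91.5 and 36.9 and the lowest value in bc203.

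The vessel wall was represented by endothelial genes with a median of 13.1 ± 2.41 ppm and by pericyte and smooth muscle genes with 8.6 ± 1.43 ppm. Cldn5, the tight junction claudin of the blood-brain barrier, had 698, 888 and 787 (102 ± 10.4 ppm). Slco1c1, a thyroid hormone transporter, had 994, 1017 and 1425 (40.5 ± 8.64 ppm) and Mfsd2a, a lipid transporter of the barrier, 466, 506 and 413 (37.6 ± 3.48 ppm), and both could not be ordered. Rgs5, a pericyte regulator of G protein signalling, had 2352, 2319.8 and 1532 (83.4 ± 18.8 ppm), lowest in bc203. Vtn (vitronectin) had 232, 239.9 and 251 and Pdgfrb, the PDGF receptor of pericytes, 411, 399 and 335. The smooth muscle genes Tagln, Acta2 and Myh11 were at 14.5 ± 1.67, 10.6 ± 2.66 and 9.14 ± 3.24 in normalized value.

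The lists of the meninges and of the ependyma and choroid plexus were among those with the lowest medians. Meningeal fibroblast genes had a median of 1.23 ± 0.455 ppm. Their 3 highest members, the proteoglycan Ogn (40.5, 47.3 and 22.1), the forkhead factor Foxc1 (80.3, 78.9 and 61.1) and the collagen Col3a1 (145, 117 and 68.5), were each lowest in bc203. Aldh1a2, the retinoic acid enzyme of the meninges, was at 3.38, 17.9 and 2.11, Crabp2 at 3.38, 4.21 and 1.05 and Slc6a13 at 0.84, 6.31 and 1.05.

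Of 8 ependymal and choroid plexus genes, 7 were below a mean of 10. Ttr (transthyretin), which the choroid plexus makes in very large amounts, was listed at 0, 0 and 3.16, and Otx2 at 0, 0 and 2.11. Folr1, Kl, Clic6, Prlr and Aqp1 had means from 0.63 to 7.02. Foxj1, the factor of motile cilia, was the exception with 108, 117 and 142.

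Thalamic genes were lower than all other lists but that one. Lef1 and Tcf7l2, both nuclear effectors of Wnt signalling, had 68.4, 84.2 and 54.8 and 50.7, 44.2 and 47.4, and Lhx9 and Gbx2, factors of thalamic neurons, 4.22, 7.36 and 3.16 and 0.84, 0 and 0. Striatal genes had a median of 3.86 ± 0.419 ppm. Ppp1r1b (DARPP-32) had 939, 1084 and 856 and Drd1, the dopamine D1 receptor, 323, 310.4 and 477. Drd1 was highest in bc203. Isl1 and Six3, transcription factors of striatal precursors, were near the limit of 10 at 6.76, 9.47 and 17.9 and 12.7, 9.47 and 10.5.

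Red blood cell RNA was present in all 3 libraries. The β-globin gene Hbb-bs had 2387, 3507 and 2510.4 (667 ± 134 ppm), the α-globin genes Hba-a1 and Hba-a2 1765, 2636 and 2036 and 1037, 1498 and 1111, and all 3 were highest in bc202. The 7 genes held 0.0332% ± 0.00685 of the summed value. Hba-a1 and Hba-a2 share 415 identical bases in a row and Hbb-bs and Hbb-bt 430, so the division between them is uncertain.

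Genes of the presynaptic machinery were already high at birth. The 12 genes of synaptic vesicle release had a median of 213 ± 7.88 ppm, and all 12 were above the median of all expressed rows. Cplx2, a complexin, had 16534, 17295 and 16546 (625 ± 7.3 ppm), Vamp2, the vesicle SNARE, 9652, 9842 and 9923 (472 ± 6.98 ppm) and Cplx1 3591, 3572 and 3637 (302 ± 7.08 ppm). The values of these 3 genes lay within 5% of each other.

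Receptor and channel genes were then set beside each other in pairs of which 1 gene is known for the immature and 1 for the mature brain. Of the NMDA receptor subunits, Grin2b, of the fetal receptor, had 10384, 9876 and 11740.4 (78.8 ± 7.69 ppm) and Grin2a, of the mature receptor, 269.5, 324 and 416 (3.44 ± 0.748 ppm). The log2 ratio per kilobase of Grin2b to Grin2a was 4.53 ± 0.23, or 23.2-fold, with the highest ratio in bc201 and the lowest in bc203. Grin1, the obligatory subunit, was at 45.9 ± 4.39 ppm and Grin3a at 31.3 ± 2.92 ppm, while Grin3b had 0, 0 and 2.11. The 4 AMPA receptor genes ordered as Gria1 (109.9 ± 3.17 ppm), Gria2 (80.7 ± 11.8 ppm), Gria4 (40.6 ± 2.42 ppm) and Gria3 (23.8 ± 2.06 ppm), with no overlap.

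Of the GABA-A receptor subunits, Gabra3 had 3063, 2935 and 2841 (138 ± 6.93 ppm), Gabra5 1939.8, 1971 and 2051 (123 ± 3.82 ppm) and Gabra2 2299.7, 1904 and 1832 (48.4 ± 6.79 ppm). Gabra2 was below both others per kilobase in every library.

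Of the chloride transporters, Slc12a2 (NKCC1, which loads chloride) had 1129, 937 and 1020.2 (17.3 ± 1.93 ppm) and Slc12a5 (KCC2, which extrudes it) 1439.6, 1474 and 1506 (36.3 ± 0.795 ppm). Here the late gene was the higher one, 2.11-fold per kilobase (log2 ratio of early to late -1.07 ± 0.15). The same direction held for the glutamate transporters, with Slc17a7 3.17-fold above Slc17a6 (-1.67 ± 0.07). In the other 4 pairs the early gene was higher in all 3 libraries.

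Scn3a, the embryonic sodium channel, had 2612, 2498 and 2705 and Scn1a, of mature interneurons, 389, 376 and 467, a ratio of 5.7 per kilobase (log2 2.51 ± 0.12). Scn2a1 was the highest sodium channel gene at 86.6 ± 7.33 ppm, and Scn8a stood at 20.7 ± 1.57 ppm. Camk2b had 13194, 13113 and 12994 and Camk2a, the kinase subunit that rises as the forebrain matures, 1939, 1983 and 1768, a ratio of 5.66 (log2 2.50 ± 0.08). Dcx had 49182, 49726 and 45189 and Rbfox3, which encodes NeuN, 3918, 3702 and 3386, a ratio of 6.03 (log2 2.59 ± 0.05), which became a log2 ratio of 3.71 when values were not divided by length and 2.19 with the longest transcript as the length. Sox4 and Sox11, factors of newly made neurons, were at 806 ± 66.1 and 446 ± 30.1 ppm. Not every late gene was lower than these. Nrgn (neurogranin), a late gene of the list of early and late neuronal genes, had 4124, 4591 and 5159. Its mean level per kilobase lay between those of Dcx and Sox11. Of the neurofilament genes, Nefl (93.3 ± 8.86 ppm) and Nefm (49.6 ± 6.14 ppm) were well above Nefh (1.62 ± 0.504 ppm), the subunit added last.

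**Figure D3:**
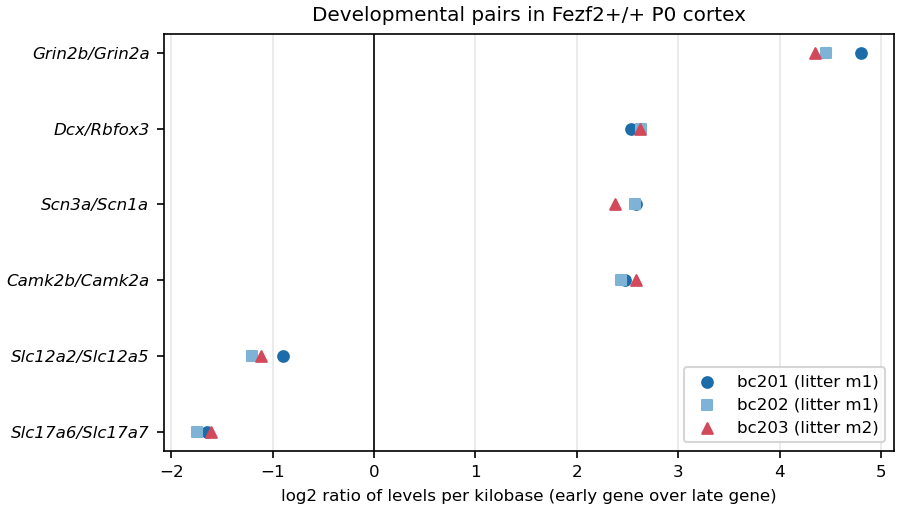
Log2 ratio of levels per kilobase of an early over a late gene in 6 pairs, 1 point for each Fezf2+/+ library, with a line at equal levels. Slc17a6/Slc17a7 and Slc12a2/Slc12a5 lie left of the line, and the other 4 pairs lie right of it, up to 4.80 for Grin2b/Grin2a in bc201.

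Immediate early genes, which activity or handling can raise within minutes, had a median of 3.84 ± 0.607 ppm. Egr1 had 471, 445 and 213, lowest in bc203, Ier2 127, 125 and 124 and Dusp1 253, 274 and 280.3. Fos had 25.4, 24.2 and 10.5 and Fosb 5.91, 4.21 and 5.27.

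The spread among the 3 mice fell with the level of a row. Over the 16178 expressed rows the median coefficient of variation was 8.37%. In rows with means from 10 to 50 it was 20.2%, beside a counting error of 21.2%. It fell to 9.16% from 100 to 500 (counting error 6.26%) and to 4.98% from 1000 to 10000 (counting error 2.15%). An SD over 3 libraries lies below the true spread in the median, so the values are not like for like, and at means from 1 to 10 the median was 48.3%, below its counting error of 58.4%. The libraries of litter m1 were closer to each other than to that of litter m2. Among 12895 rows with a mean of at least 50, 135 differed by over 1.5-fold between bc201 and bc202, 509 between bc201 and bc203 and 450 between bc202 and bc203. Pearson's r of log2 values across these rows, a description since rows are not independent and share library and depth, was 0.989, 0.982 and 0.989.

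**Figure D4:**
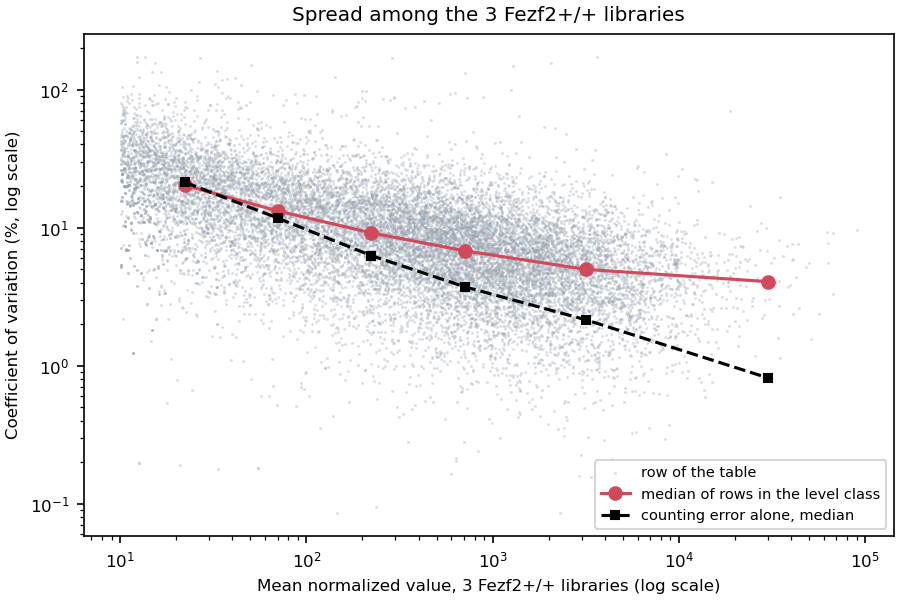
Coefficient of variation over the 3 Fezf2+/+ libraries (%, log axis) against the mean normalized value (log axis), with a grey point for each row, the median of 6 level classes in red and the median counting error in black. The red line starts near the black one at means from 10 to 50, at 20.2% and 21.2%, and ends at 4.06% and 0.816% for means of at least 10000.

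The largest ranges were sex-linked. Xist, the RNA that coats the inactive X chromosome, had 10771, 58.9 and 8.43, and the Y-linked genes Eif2s3y, Kdm5d, Uty and Ddx3y had 0, 1077 and 692, 0, 474 and 413, 0, 278 and 320.4 and 4.22, 1479 and 1169. In bc201 the Y-linked genes were at or near 0 and Xist was high, and in bc202 and bc203 it was the reverse. The 4 Fezf2-/- libraries were like bc202 and bc203, with Xist at most 3.27, and both Fezf2-/-; Fezf2-EnR libraries were like bc201, with Xist at 12203 and 7895 and the 4 Y-linked genes at 0. Between Fezf2+/+ and Fezf2-/-; Fezf2-EnR this difference and the genotype can be told apart only through bc201, and its part in other differences was not tested.

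Of the 10 largest ranges among rows with a mean of at least 50, the other 5 were Gm13370, Ccl28, Gm9855, 1500004A13Rik and 2410018L13Rik. The processed pseudogene Gm13370 had 2.53, 8.42 and 854, and the other library of litter m2, of Fezf2-/-; Fezf2-EnR, had 1035, while no library of litters m1 and m3 was above 8.42. Ccl28, a mucosal chemokine, had 415, 206 and 7.38, and Gm9855, a pseudogene, 428, 403 and 8.43. 1500004A13Rik had 29.6, 875 and 1276 and 2410018L13Rik 10.1, 191 and 398. Rpsa-ps10, chosen after its values were seen, had 204, 242 and 5716 in Fezf2+/+, 215 and 217 in the Fezf2-/- libraries of litter m1, and from 2921 to 3288 in the other libraries of litters m2 and m3.

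Ribosomal RNA and 7S RNA differed between libraries. These 6 rows held 0.0182% of the summed value in bc201, 0.13% in bc202 and 0.139% in bc203, and from 0.0307% to 0.14% in the other 6 libraries. The largest of them, Gm42418, which overlaps an rRNA row on the opposite strand, had 3668, 25589 and 27077. All 6 rows were lowest in bc201. Poly(A) selection is meant to remove such RNA, and the part of this difference in other results was not tested.

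Among marker genes, the library of litter m2 was the lowest of the 3 more often than among all rows. Of 215 expressed members of the cell type lists without the sex-linked ones, 103 (47.9%) were lowest in bc203, beside 36.7% of all expressed rows, and 62 (28.8%) were highest there, beside 38.4%. In 10 lists of 5 or more expressed members, over 50% of the members were lowest in bc203. These were the lists of dividing cells (9 of 11), intermediate progenitors (4 of 5), radial glia (8 of 12), Cajal-Retzius cells (7 of 8), layer 6 (7 of 11), MGE-derived interneurons (6 of 9), microglia (8 of 12), meningeal fibroblasts (6 of 7), endothelial cells (7 of 12) and pericytes (6 of 9). In the pan-glutamatergic and oligodendrocyte precursor lists, over 50% of the members were instead highest in bc203, 4 of 7 in each. As a difference of log2(value + 1), bc203 minus the mean of bc201 and bc202, the list medians were -0.92 for meningeal fibroblasts, -0.71 for intermediate progenitors, -0.36 for dividing cells, -0.28 for endothelial cells, -0.27 for pericytes, -0.26 for radial glia and -0.22 for Cajal-Retzius cells. They were -0.11 for microglia and -0.07 for both layer 6 and MGE-derived interneurons. For the pan-glutamatergic, layer 5 and upper layer lists they were 0.07, -0.01 and 0.02, and over all expressed rows 0.00. With 1 library of litter m2, the litter, the mouse and the library cannot be told apart, and no test was made.

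**Figure D5:**
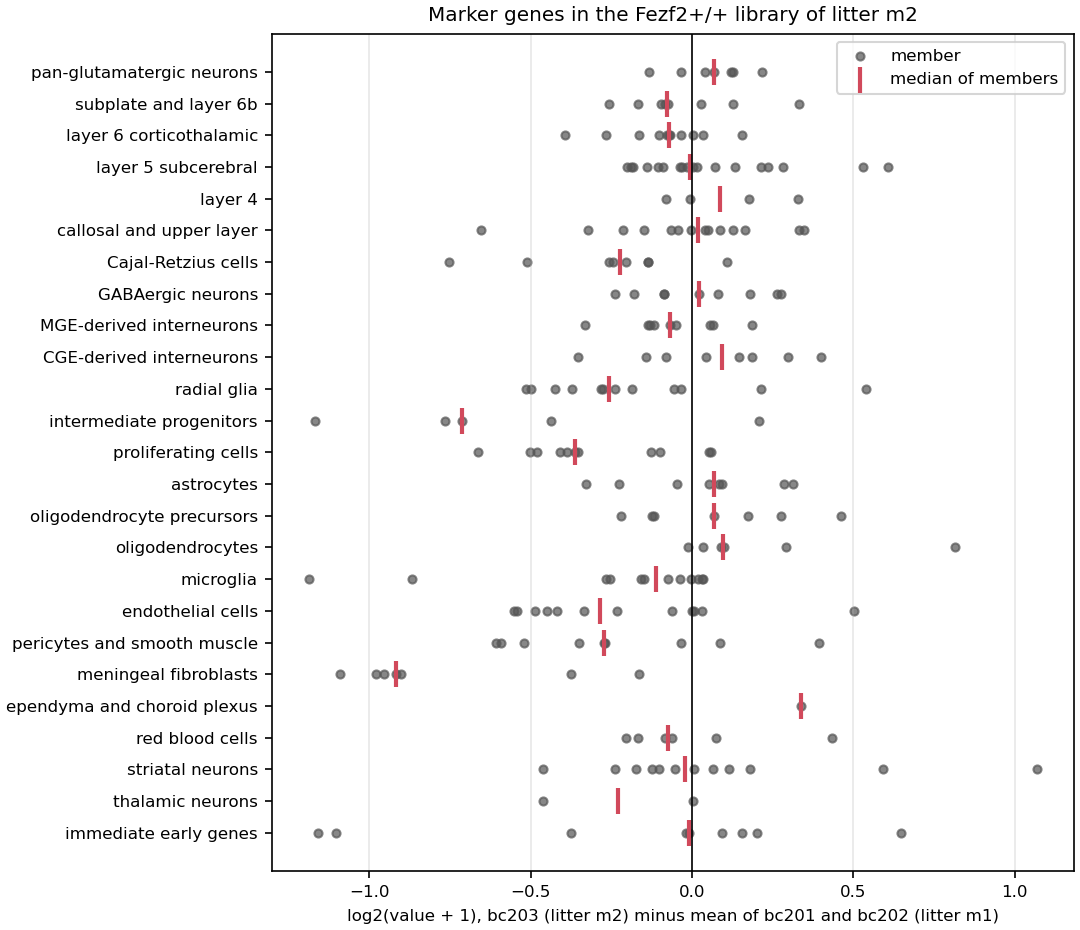
Difference of log2(value + 1) between bc203 (litter m2) and the mean of bc201 and bc202 (litter m1), a point for each expressed member of a list and a red bar for the list median. The medians of meningeal fibroblasts (-0.92), intermediate progenitors (-0.71) and dividing cells (-0.36) lie furthest left of 0 among the cell type lists, those of Cajal-Retzius cells (-0.22) and the 2 expressed thalamic genes (-0.23) are nearer to it, and those of the pan-glutamatergic, layer 5 and upper layer lists lie within 0.1 of it.

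Finally, the wild type levels of the listed genes were compared with the other genotypes. The targeted gene came first. Fezf2 had 1232, 1010.0 and 979 in Fezf2+/+, 223, 193, 242 and 209 in Fezf2-/- and 907 and 1001 in Fezf2-/-; Fezf2-EnR, where transcripts of the transgene may be counted with it. The Fezf2-/- libraries lay below all others (log2 difference of Fezf2+/+ minus Fezf2-/- 2.30, standard error 0.10, limma adjusted p = 1.38e-06).

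Over all 16197 rows tested, 0.858% were called against Fezf2-/- at an adjusted p under 0.05, 0.346% as higher and 0.512% as lower in Fezf2+/+. Of the 288 listed genes tested, 22 (7.64%) were called, 18 of them higher and 4 lower in Fezf2+/+. The marker lists hold genes that the study itself followed in these mice, and they were chosen with earlier results of these data known. The count and its share, in all lists and in single ones, are therefore not independent of these data. The median difference of the listed genes was -0.08 on the log2 scale, beside -0.00 over all rows. Of the 22, 14 were called under every alternative and without any 1 library. With litter as a block, 16 of the 22 were called.

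By layer, 6 of 11 corticothalamic genes were higher in Fezf2+/+ and none was lower. Nxph3, a neurexophilin, had 1188, 1160.4 and 1094 beside 184, 145, 195 and 184 in Fezf2-/- (log2 difference 2.70, standard error 0.10, limma adjusted p = 3.52e-07). Hs3st4, a heparan sulfate sulfotransferase, differed by 1.98, Zfpm2 by 1.61, Syt6, a synaptotagmin, by 1.60, Tle4 by 1.55 and Wnt7b by 0.55. The other 5, among them Tbr1 and Foxp2, did not pass the test. Of 18 layer 5 genes, Fezf2, Tcerg1l (2.20), Ephb1 (0.82), Adcyap1, which encodes the neuropeptide PACAP (0.81), Bhlhe22 (0.45) and Ldb2 (0.41) were higher in Fezf2+/+.

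In the subplate list, Cplx3 had 103, 78.9 and 114 beside 6.03, 14.2, 15.6 and 12.5 in Fezf2-/- (log2 difference 2.99, standard error 0.29, limma adjusted p = 0.00059), Nxph4 and Ctgf were also higher in Fezf2+/+ by 1.45 and 1.40, and Nr4a2 was lower (-0.75). Outside the deep layer lists, Ermn (2.67), Lum, a proteoglycan of connective tissue (2.40, at values of 22.8, 17.9 and 17.9 in Fezf2+/+), and Emx1, a homeobox factor of the dorsal forebrain (0.44), were higher in Fezf2+/+. Cck (-1.26), Slc17a6 (-0.59) and Mdga1 (-0.47) were lower. The calls of Bhlhe22, Ldb2, Emx1, Wnt7b, Lum, Nr4a2, Slc17a6 and Mdga1 were lost without at least 1 library, in each of these genes without bc201 and without bc202 among others. With litter as a block the calls of Bhlhe22, Ldb2, Mdga1, Nr4a2, Slc17a6 and Wnt7b were lost, and with edgeR those of Ldb2, Emx1 and Slc17a6.

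Against Fezf2-/-; Fezf2-EnR, 0.117% of the rows tested were called, and of the 288 listed genes 1 (0.347%). This was Fam107a, with 85.3, 81 and 58 in Fezf2+/+, 43.2, 34.9, 37.5 and 25.8 in Fezf2-/- and 24.9 and 17.5 in Fezf2-/-; Fezf2-EnR (log2 difference of Fezf2+/+ minus Fezf2-/-; Fezf2-EnR 1.77, standard error 0.27, limma adjusted p = 0.0413). Its call was lost in 6 of 9 fits that left out 1 library, among them those without bc201 or bc202, and also with litter as a block and with only the 2 groups compared. In Xist and the Y-linked genes, bc201 was like both Fezf2-/-; Fezf2-EnR libraries, and bc202 and bc203 were not. The part of this in the result was not tested. The median difference of the listed genes was -0.05 on the log2 scale, beside 0.00 over all rows.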

How the data were processed

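RNA-seq libraries of P0 mouse cortex were made from total RNA with an Illumina TruSeq poly(A) protocol, 1 mouse per library. The authors deposited 1 table of 24624 rows in which the values of each of the 9 libraries are a signal, read counts divided by a size factor, printed to 2 decimals. The submitters' processing notes name mm10, Bowtie, STAR and DESeq without versions, and the counting rule for shared reads and the use of strand are not given in the sources used here. Divided by what 1 read is worth, 100% of the low values of each library came within 0.1 of a whole number, and reads were recovered in 7 libraries, bc201, bc202 and bc203 among them. In bc204 and bc208 the worth of a read was too close to 1 to be told from rounding.

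Exon lengths and positions came from GENCODE M21 (mm10), which matched 24595 rows by identifier. Marker lists hold 26 cell type and 8 pathway lists with 312 genes, of which 308 were in the table, and 287 had a Fezf2+/+ mean of at least 10. Diap3, Pvalb, Mobp and Shox2 were not analysed here. The dopamine receptor Drd1 was matched by its identifier. The members and lists were chosen with earlier results of these data known. Named were the 20 highest rows by value and per kilobase, the 3 highest members of each list and those below a mean of 10, both genes of each pair, the 10 largest ranges, called members, Fezf2 and Tle4. Other genes named were chosen after their values were seen, and some genes that the rule names are not reported here.

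Genotypes were compared with limma 3.58.1 (R 4.3.3; lmFit, eBayes with trend) on log2(value + 1) over the 16197 rows with a mean of at least 10 in the 9 libraries, without covariates, coded as Fezf2+/+ minus the other genotype. This scale understates differences of low rows. Rows with a Benjamini-Hochberg adjusted p under 0.05 over all rows were called. Alternatives were pseudocounts of 0.1 and 10, other minimum means, litter as a block, TMM rescaling, a fit of the 2 groups alone, each library left out, and edgeR 4.0.16 and DESeq2 1.42.0 on recovered reads, and for levels other lengths, thresholds and summaries. The fits were tested on simulated data in which 200 rows were changed, all with a mean of at least 50. Counts were drawn with the same dispersion for every row and without differences of litter or sex. The rates below hold for such data and may not hold for these libraries. For Fezf2+/+ against Fezf2-/-, limma recovered 80.6% of rows changed 1.5-fold and 100% of those changed 2-fold, over 16214 rows, with 7.43% false calls. For Fezf2+/+ against Fezf2-/-; Fezf2-EnR it recovered 64.2% and 98.5%, with 8.85% false calls. Figures and tables were made with Python 3.11.15, pandas 2.3.3 and matplotlib 3.10.9.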

Additional observations from a re-analysis of the deposited data

Results flagged for a closer look

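In 5 of 30 genes, 1 of the 4 Fezf2-/- libraries lay far from the others by Dixon's ratio of the gap to the range at the 95% level, where chance gives about 1 in 20. The 30 genes were those whose Fezf2-/- values were used, and the 3 Fezf2+/+ libraries were too few for this rule. Tle4 had 978, 977, 820.5 and 990.1 in bc204 to bc207, with the gap below the others in bc206 (ratio 0.925). Nxph4 had 126, 163, 169 and 167, Zfpm2 148, 182, 186 and 180.2, Slc17a6 1008, 1025, 975 and 1296 and Nr4a2 3357, 3462, 3575 and 4796, with ratios of 0.874, 0.86, 0.842 and 0.849. In each of the 5 genes, all 4 Fezf2-/- libraries lay on the same side of the 3 Fezf2+/+ libraries. All 5 were among the genes called against Fezf2-/- on these same values. This separation was therefore largely given by the choice of genes and says nothing about the far library.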

How the results depend on the processing

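The number of rows called against Fezf2-/- (139) became 220 with only the 2 groups compared and 351 with DESeq2 on the 6 libraries of both groups whose reads were recovered, over 17862 rows tested, and lay between 66 and 218 when 1 library was left out. It was 66 without bc201, 71 without bc202, 88 without bc203 or bc205 and 87 without bc206, but 213 without bc208 and 218 without bc209. The other alternatives, edgeR on the same 6 libraries among them (142), stayed within 1.5 times. Rows called against Fezf2-/-; Fezf2-EnR (19) became 10 with a minimum mean of 50, 11 with only the 2 groups and 32 with litter as a block, and ranged from 8 to 492 when 1 library was left out, with 12 without bc202, 180 without bc203, 33 without bc207, 492 without bc208 and 8 without bc209. That comparison was not run with edgeR or DESeq2, because reads were recovered in only 1 Fezf2-/-; Fezf2-EnR library. With litter as a block, 125 rows were called against Fezf2-/-, of which 96 were among the 139. The share of the 100 highest rows (14.0%) became 13.3% without mitochondrial genes and 24.0% per kilobase, and was 13.8% to 14.1% without 1 library. The median coefficient of variation (8.37%) was 7.03% at means of at least 50, 5.45% at means of at least 500 and 5.49% in litter m1 alone, and 5.49% to 7.79% without 1 library. The values in litter m1 alone and without 1 library rest on 2 libraries in place of 3, and are not like for like with 8.37%. The causes were not tested. The number of expressed rows was 12895 to 21795 with other thresholds, within 1.5 times of 16178. Of the 26 cell type list medians, 24 moved by more than the spread between libraries when the mean over members was taken and 15 with the longest transcript as the length, among them pan-glutamatergic neurons (76.6 ppm, then 299 and 106) and the subplate (9.81, then 25 and 13). Of 8 ratios of early to late genes, 6 moved without length and 6 with the longest transcript, and none changed direction. Counting error alone was 21.2% for the median row with a mean from 10 to 50, and levels of near-identical genes depend on the authors' counting, which the deposited values do not show.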
